A study of Mus musculus with 6 samples.

Results

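The Vmn2r genes encode type 2 vomeronasal receptors, and every gene of the table whose symbol begins with Vmn2r was taken, which gave 127 of 23420 genes. Their levels were read in 6 bulk RNA-sequencing libraries, each made from tuft cells sorted out of the ileum, which form 1 group. The donors were C57BL/6J mice carrying Gfi1b-eGFP/+, used at 6 to 12 wk of age in the study, and no other genotype, treatment or time enters these libraries. In these mice a fluorescent protein is made from 1 allele of the transcription factor gene Gfi1b, and the sort took GFP-positive, EpCam-positive, CD45-negative live cells. Whether a library holds 1 mouse or a pool is not given in the sources used here, beyond a mouse replicate number. Values are TPM, the number of transcripts of a gene in 1000000 transcripts after correction for transcript length, so genes can be compared within a library, but the depth of a library is unknown and a 0 carries no detection limit. In bulk RNA, fewer cells that use a gene and less RNA per cell cannot be told apart.

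Type 2 vomeronasal receptors are class C G protein-coupled receptors, with a large extracellular domain that binds ligand. They are best known from the basal sensory neurons of the vomeronasal organ, where they respond to peptides and proteins in bodily secretions, couple to the G protein alpha subunit Go and open the cation channel TRPC2. The taste receptors TAS1R1, TAS1R2 and TAS1R3 belong to the same class C. VMN2R26, also known as V2R1b, is a vomeronasal receptor for peptides of the kind that MHC class I molecules present. Tuft cells are chemosensory cells of the epithelium that signal through gustducin, PLCb2 and TRPM5.

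Vmn2r26 (ENSMUSG00000096630.2) occupies positions 124024568 to 124065806 of chromosome 6 in GRCm38, on the plus strand, with 6 exons in GENCODE M21. Its coding sequence was 97.3% identical to that of Vmn2r25, its neighbour in the same cluster, 88.5% to Vmn2r24 and 88.2% to Vmn2r23, its closest relatives among the 121 members with a coding sequence in the annotation. The 60 coding bases shown are the stretch within 1 exon, aligned without gaps, in which the relative most like Vmn2r26 there still differed at the most bases, and capitals mark the bases that differ from Vmn2r26. They lie at chr6:124050794-124050853 (plus strand) in Vmn2r26, at chr6:123828346-123828405 (minus strand) in Vmn2r25, at chr6:123804325-123804384 (plus strand) in Vmn2r24 and at chr6:123729686-123729745 (plus strand) in Vmn2r23.
Vmn2r26: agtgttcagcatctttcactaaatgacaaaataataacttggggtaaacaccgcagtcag
Vmn2r25: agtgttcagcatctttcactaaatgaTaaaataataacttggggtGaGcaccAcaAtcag
Vmn2r24: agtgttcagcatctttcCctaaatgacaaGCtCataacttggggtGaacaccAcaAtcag
Vmn2r23: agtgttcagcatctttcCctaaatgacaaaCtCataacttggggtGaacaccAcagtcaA
In this stretch 5 bases differed from Vmn2r26 in Vmn2r25, 7 in Vmn2r24 and 6 in Vmn2r23. Over the whole coding sequence, Vmn2r25 differed from Vmn2r26 by 60 substitutions and 10 gap positions in an alignment of 2570 columns.

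At the other end stood the stretch in which these genes were most alike, shown because reads from it could belong to more than 1 of them. It lies at chr6:124039798-124039857 (plus strand) in Vmn2r26, is the same in Vmn2r25 and Vmn2r24, and differs by 1 base in Vmn2r23.
Vmn2r26: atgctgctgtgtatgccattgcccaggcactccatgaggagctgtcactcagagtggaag
Of the 2541 distinct 25-base words in the coding sequence of Vmn2r26, 34.1% were found in no transcript of another gene in GENCODE M21, on either strand. Vmn2r25 held 59.3% of them, Vmn2r24 33.3% and Vmn2r23 14.1%. RSEM, which the authors used, divides reads that align to several genes by estimated shares, so the values of these neighbours depend on the part of the sequence that is their own.

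Of the 127 Vmn2r genes, 10 were listed above 0 in any library, which is 7.87% of the family, while 67.1% of all genes in the table were. With a threshold of 1 TPM in any library the count was 4. Only Vmn2r26 and Vmn2r-ps129 were above 0 in all 6 libraries, a state that 47.2% of all genes reached, and the same 2 were the members with a mean of at least 10 TPM, where 29.8% of all genes lay. A further 2 members were above 0 in 4 libraries, 2 in 3 libraries and 4 in a single library. The remaining 117 were at 0 throughout. In a single library, 4 to 7 members were above 0. The family is therefore described gene by gene, since its median is 0 in every library.

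**Figure D1:**
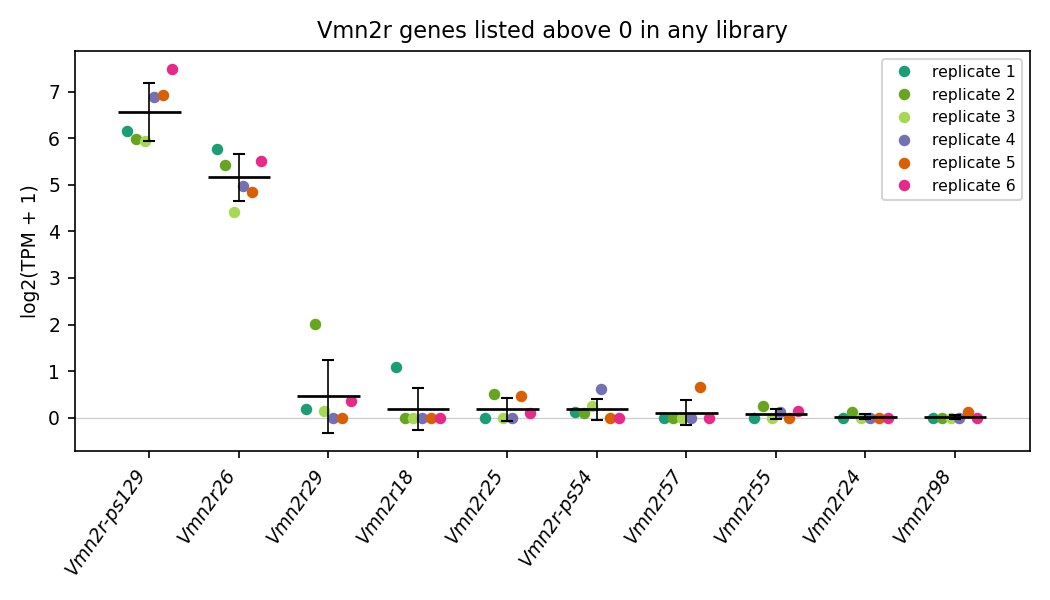
The 10 Vmn2r genes listed above 0 in any of the 6 libraries, on the log2(TPM + 1) scale, with a point per library, the mean as a line and the SD as an error bar. Vmn2r-ps129 and Vmn2r26 lie above all other members in every library, and the other 8 are at or near 0 in most.

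In replicates 1 to 6, Vmn2r26 had 53.8, 42.0, 20.4, 30.2, 27.8 and 44.9 TPM. It was highest in replicate 1 and lowest in replicate 3, a 2.64-fold range, with a mean of 36.5 ± 12.4 TPM (SD, n = 6). Among the genes listed above 0 in each library it lay between percentiles 64.3 and 84.3, with a median percentile of 78.1. On the log2(TPM + 1) scale its level was 5.16 ± 0.50 (SD, n = 6).

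Among members without a pseudogene symbol no other gene came near. The highest of them in each library had 0.08 to 3.06 TPM, and Vmn2r26 exceeded it in 6 of 6 libraries, by 4.43 ± 0.62 on the log2(TPM + 1) scale (SD, n = 6). The smallest such difference was 3.41, in replicate 2, and the largest 5.15, in replicate 6. These values are a description with no test, since Vmn2r26 was singled out with its level already known.

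Over the whole family, however, the most abundant member was not Vmn2r26 but Vmn2r-ps129, a gene classed as a pseudogene. Replicates 1 to 6 had 70.6, 62.3, 60.5, 116.9, 120.1 and 178.8 TPM of it, on average 101.5 ± 46.3 TPM (SD, n = 6). It exceeded Vmn2r26 in every library, by 1.31 to 4.32 times in TPM, and Vmn2r26 minus Vmn2r-ps129 was -1.40 ± 0.75 on the log2(TPM + 1) scale (SD, n = 6). The order of these 2 genes thus held in all libraries, but its size did not, being smallest in replicate 1 and largest in replicate 5. Vmn2r-ps129 took 56.2% to 80.7% of the TPM summed over the family and Vmn2r26 18.7% to 42.8%. All other members together took 0.205% to 3.55%, or 0.29 to 3.84 TPM.

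The libraries also fell apart for Vmn2r-ps129 in a way that they did not for Vmn2r26. Each of replicates 4 to 6 had more Vmn2r-ps129 than any of replicates 1 to 3, at 138.6 ± 34.8 TPM against 64.4 ± 5.40 TPM (SD, n = 3 each), a ratio of 2.15. Of the genes above 0 in all 6 libraries, 3.56% were higher in every one of replicates 4 to 6 than in replicates 1 to 3 and 13.3% were lower in every one. The split was noticed in these values and is not set by the labels. For Vmn2r26 the sets overlapped, with 38.7 ± 16.9 TPM in replicates 1 to 3 and 34.3 ± 9.27 TPM in replicates 4 to 6 (SD, n = 3 each). Gm20594 differed between the same libraries, taking 1.56% to 2.13% of the TPM in replicates 1 to 3 and 5.18% to 5.64% in replicates 4 to 6, and the ribosomal RNA precursor Rn45s took 23.1% to 25.1% and 26.7% to 32.6%. The part of these transcripts in the levels of Vmn2r-ps129 was not tested.

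What is measured under the name Vmn2r-ps129 also differs between annotations. In GENCODE M21 it is an unprocessed pseudogene on chromosome 17 (ENSMUSG00000094752.1, 22992706 to 23008970, plus strand) with 6 exons of 2568 bases in all. In the RefSeq table of GRCm38 it is a transcribed pseudogene from 23004971 to 23006659, a span of 1689 bases, which holds only 124 of those 2568 exon bases. These are exon 5 of 6, which aligned to exon 5 of Vmn2r26 with 67.9% identity. Both exons are shown because this is the only annotated receptor sequence inside the RefSeq span, at chr6:124053859-124053982 in Vmn2r26 and chr17:23005865-23005988 in Vmn2r-ps129, both on the plus strand. Capitals mark the 52 bases that differ from Vmn2r26 when the exons are laid side by side without gaps.
Vmn2r26: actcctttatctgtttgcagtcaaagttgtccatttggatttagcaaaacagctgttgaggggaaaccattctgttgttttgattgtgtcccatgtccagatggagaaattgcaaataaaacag
Vmn2r-ps129: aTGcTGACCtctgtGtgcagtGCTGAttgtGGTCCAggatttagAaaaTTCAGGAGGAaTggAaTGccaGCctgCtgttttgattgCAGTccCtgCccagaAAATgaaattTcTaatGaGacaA
The authors aligned to the UCSC mm10 transcriptome, whose model of this gene was not used here, and which bases its reads came from was not tested. Over its GENCODE exons, 95.4% of 2544 distinct 25-base words occurred in other genes. Vmn2r-ps130, which the table does not list, held 92.0% of them, and Vmn2r113, listed at 0 in all libraries, 60.1%.

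For Vmn2r26 the annotations gave different ends, and the exons of the RefSeq model were not compared. The RefSeq span ran from the start codon to the stop codon of the GENCODE coding sequence, which has 2568 bases. The GENCODE transcript had 6529 bases, of which 3961 lie outside the coding sequence. TPM divides by the length of the model that was used, so the level of Vmn2r26 relative to other genes rests on that choice.

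The cluster of chromosome 6 held 9 members in 923.5 kb (123308333 to 124231856), from Vmn2r19 to Vmn2r27. Of these, 3 were above 0 in any library, against 7.87% of the family and 67.1% of all genes. Vmn2r25 was listed at 0.43 TPM in replicate 2, 0.37 TPM in replicate 5 and 0.07 TPM in replicate 6, and at 0 in the others. Vmn2r24 was listed at 0.09 TPM in replicate 2 only. Vmn2r19, Vmn2r20, Vmn2r21, Vmn2r22, Vmn2r23 and Vmn2r27 were at 0 throughout. In GENCODE M21, Vmn2r24 and Vmn2r25 overlap by 3267 bases on opposite strands. Their RefSeq spans do not overlap, as that of Vmn2r24 ends at 123816280 and that of Vmn2r25 starts at 123822814. Whether the models used by the authors overlap is unknown, and the strand setting of the counting is not given. The source of reads from such an overlap therefore cannot be told apart. The sum of Vmn2r26 and Vmn2r25 ran from 20.4 to 53.8 TPM, and Vmn2r25 made up at most 1.31% of it in any library.

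**Figure D2:**
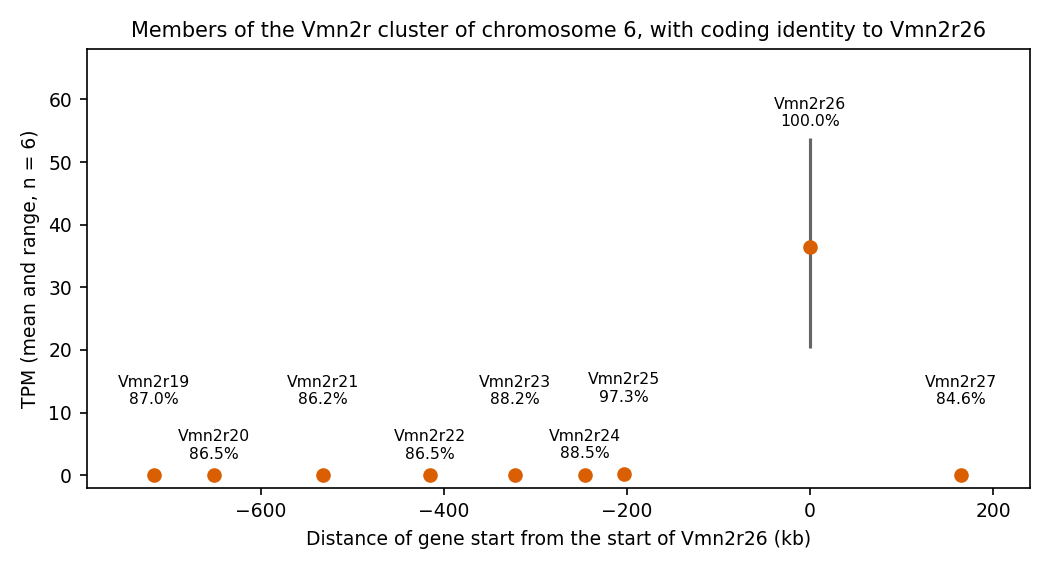
Mean TPM (points) and range over 6 libraries (lines) of the 9 members of the chromosome 6 cluster, by the distance of each gene's start from that of Vmn2r26, with the identity of each coding sequence to that of Vmn2r26. Vmn2r26 lies at 20.4 to 53.8 TPM and every other member at or below 0.43 TPM.

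The genes on either side of the cluster were also at or near 0. Clec4e, a receptor of myeloid cells, was at 0 in all libraries, and Cd163, a macrophage receptor, was at 0.04 TPM in 1 library and at 0 in the others. Along the chromosome, Vmn2r26 stood between Vmn2r25, whose start lies at -202.9 kb from its own, and Vmn2r27 at 165.2 kb, neither of them above 0.43 TPM in any library.

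Likeness to Vmn2r26 in sequence divided the coding members into separate groups. The 8 other members of the chromosome 6 cluster had coding sequences 84.6% to 97.3% identical to Vmn2r26, and the 112 coding members elsewhere in the genome 47.2% to 61.8%. No member came between. Above 0 in any library were 2 of the 8 and 5 of the 112. The highest value in any library was 0.43 TPM among the former and 3.06 TPM among the latter.

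**Figure D3:**
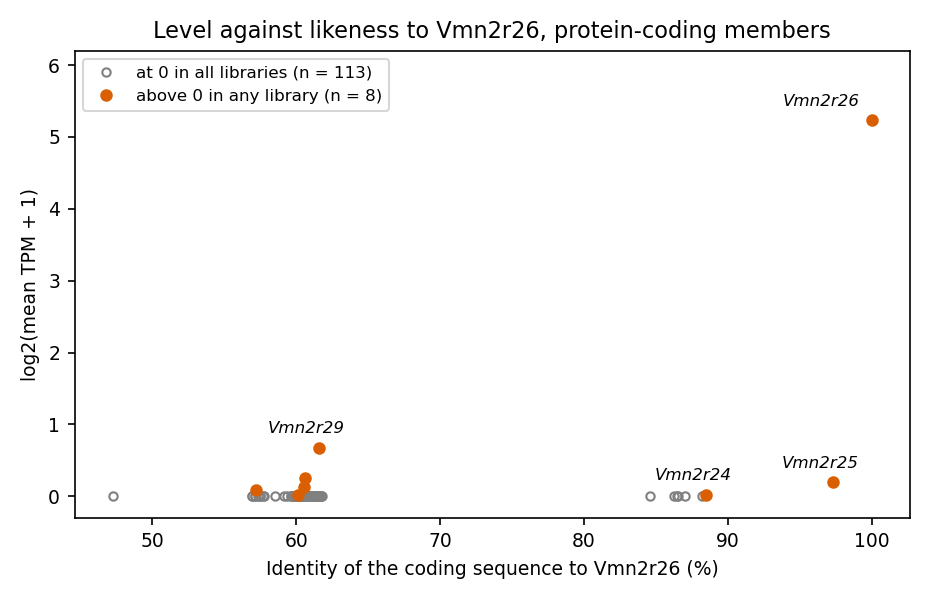
Identity of the coding sequence to Vmn2r26 (percent, horizontal axis) against log2(mean TPM + 1) for the 121 coding members. The closest relatives of Vmn2r26, at 84.6% identity or more, lie near 0, as do the members at 61.8% or less.

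The members above 0 in only some libraries lay on chromosomes 5, 6, 7 and 17, with 4 of them on chromosome 7. Vmn2r29 (chromosome 7, 7231327 to 7247328, minus strand) had 0.14, 3.06, 0.11, 0, 0 and 0.29 TPM in replicates 1 to 6, so that 1 library held most of its signal. Its mean of 0.60 TPM fell to 0.108 TPM without replicate 2. Only 1.66% of its 25-base words were its own, and Gm45844, a gene annotated over the whole of it on the same strand, is not listed in the table. Vmn2r-ps54, a transcribed pseudogene of chromosome 7, was at 0.08, 0.07, 0.18 and 0.53 TPM in replicates 1 to 4 and at 0 in replicates 5 and 6. Vmn2r55, also on chromosome 7, was at 0.19, 0.08 and 0.10 TPM in replicates 2, 4 and 6.

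Each of the other members above 0 appeared once. Vmn2r18 on chromosome 5 was at 1.13 TPM in replicate 1, Vmn2r57 on chromosome 7 at 0.57 TPM and Vmn2r98 on chromosome 17 at 0.08 TPM, both in replicate 5. These values are under 2 TPM in a single library of unknown depth, and no level is read from them. By chromosome, 4 of 53 members on chromosome 7, 2 of 32 on chromosome 17, 1 of 11 on chromosome 5 and 3 of 9 on chromosome 6 were above 0, and 0 of 8 on chromosome 3 and 0 of 8 on chromosome 10. Over the family the share was 7.87% and over all genes 67.1%, and no difference between chromosomes was tested.

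The 117 members at 0 included receptors of known roles. Vmn2r1 to Vmn2r7, whose products are found broadly across basal vomeronasal neurons beside other receptors, were all at 0 (0 of 7), as was Vmn2r116, the receptor of a pheromone peptide of male tears. How far a 0 shows an unused gene differs between members. Of the 113 coding members at 0, 25 had less than 10% of their 25-base words to themselves, and for Vmn2r21 the share was 0.0394%. The other extreme was wide as well, with 32 of the 113 holding at least 50% of their own. The share was 1.66% to 66.3% among the 8 coding members above 0 (median 29.3%) and 0% to 99.0% among the 113 at 0 (median 39.7%). Coding length did not separate them, with a median of 2565 bases in each.

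Set against the other chemoreceptor families, the Vmn2r symbols had the largest share of members above 0 of the 6 families counted. All 6 lay far below the 67.1% of all genes above 0 in any library. It was 10 of 127 for Vmn2r (7.87%), 13 of 208 for Vmn1r (6.25%) and 21 of 1122 for the olfactory receptor symbols Olfr (1.87%). No gene was above 0 among 35 Tas2r, 14 Taar (without Taar1) and 6 Fpr symbols. The Vmn2r count included 2 of 5 symbols with -ps, and 8 of 122 symbols without -ps were above 0. It also included 4 members above 0 in a single library. These are counts in 1 set of libraries, with no test of the difference between families.

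Most other class C receptor genes were at 0. Of 22 other class C receptor genes, 9 were above 0 in any library and 4 in all 6 libraries, where 67.1% and 47.2% of all genes were. Gprc5c, an orphan receptor, was higher than Vmn2r26 in 6 of 6 libraries, with a mean of 179.2 ± 72.3 TPM (SD, n = 6). Gprc5a, another orphan receptor known from epithelia, had 48.4 ± 19.3 TPM (SD, n = 6) and exceeded Vmn2r26 in 5 of 6 libraries, with Vmn2r26 minus Gprc5a at -0.36 ± 0.78 on the log2(TPM + 1) scale, a difference smaller than its spread. Gabbr1, a subunit of the GABA-B receptor, had 6.64 ± 2.10 TPM (SD, n = 6) and lay below Vmn2r26 in 6 of 6 libraries, while its partner Gabbr2 was at 0. The calcium-sensing receptor Casr and the amino acid receptor Gprc6a were at 0 in all libraries.

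The comparison with Tas1r3, the class C taste receptor on which the study centred, was tested within libraries. Vmn2r26 was higher in 6 of 6 libraries, by 3.95 to 33.97 times in TPM. On the log2(TPM + 1) scale the difference was 2.90 ± 0.82 (SD, n = 6), larger than its spread. A two-sided exact test that flips the signs of the 6 differences gave p = 0.031 (adjusted p = 0.031 over 2 comparisons). Tas1r3 had 4.74 ± 3.53 TPM (SD, n = 6) and Vmn2r26 36.5 ± 12.4 TPM. Against Sucnr1, the succinate receptor of tuft cells, Vmn2r26 was lower in 6 of 6 libraries, with Vmn2r26 minus Sucnr1 at -3.41 ± 0.47 (SD, n = 6), with p = 0.031 in the same exact test (adjusted p = 0.031). Sucnr1 had 5.81 to 14.1 times the TPM of Vmn2r26. The sign-flip p of 0.031 is the smallest that 6 libraries can give. It follows from the same sign in 6 of 6 libraries, whatever the spread of the differences. The levels of all 3 genes had been seen in earlier results, so the tests add nothing to the direction in each library.

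**Figure D4:**
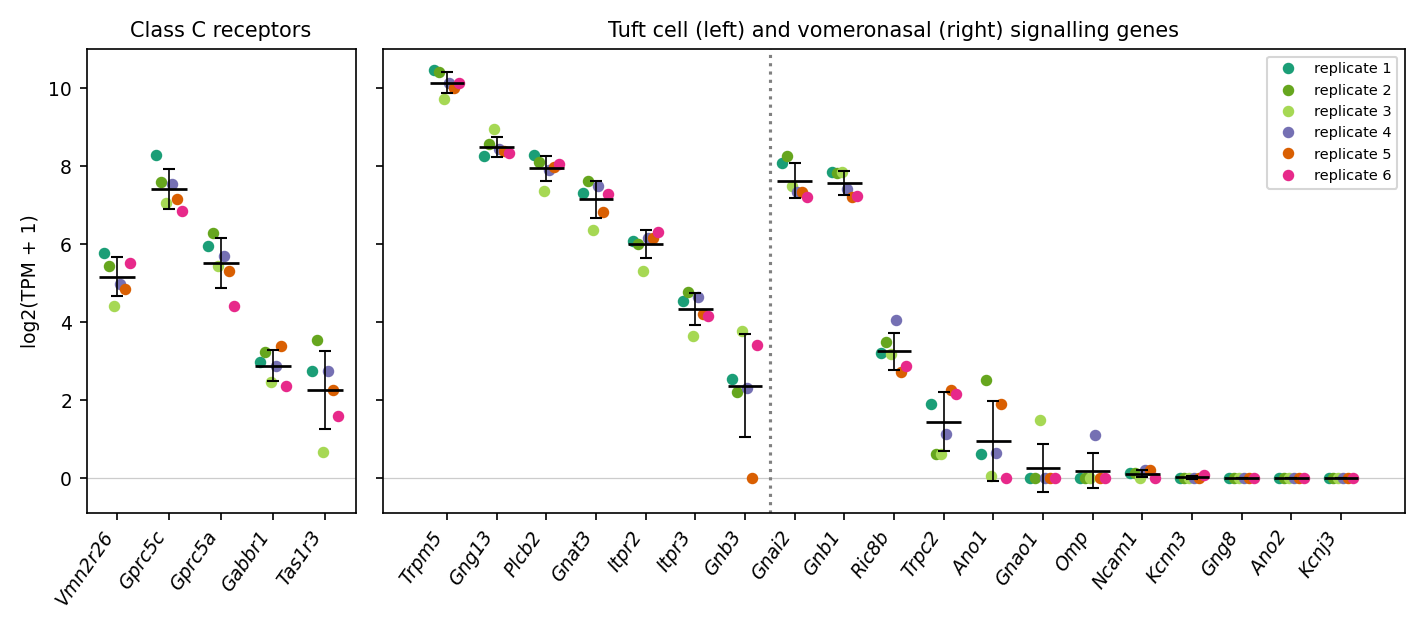
Levels on the log2(TPM + 1) scale in 6 libraries, with a point per library, the mean as a line and the SD as an error bar, for Vmn2r26 and other class C receptors above 0 in all 6 libraries (left panel) and for signalling genes of tuft cells and of vomeronasal neurons (right panel, split by the dotted line). Trpm5 and Gnat3 lie above Vmn2r26 in every library, and Trpc2 lies below it.

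Of 12 signalling genes that vomeronasal neurons use, 9 were above 0 in any library, where 67.1% of all genes were. The other 3 were at 0 throughout, and some of the 9 appeared in 1 library only. Gnao1, which encodes the G protein alpha subunit Go, was at 1.82 TPM in replicate 3 and at 0 in the other 5 libraries. Trpc2, the channel gene, was at 2.72, 0.52, 0.54, 1.17, 3.78 and 3.47 TPM in replicates 1 to 6, above 0 in every library and below Vmn2r26 in each. Gng8, a G protein gamma subunit of these neurons, the chloride channel gene Ano2 and the potassium channel gene Kcnj3 were at 0 throughout, and Kcnn3 was at 0.06 TPM in 1 library. Ano1, another chloride channel gene, ran from 0 to 4.72 TPM. Of the list of 12 vomeronasal signalling genes, 4 were above 0 in all libraries, where 47.2% of all genes were, namely Trpc2, Gnai2, Gnb1 and Ric8b. The last 3 are general to many cell types. Gnai2, a Gi alpha subunit that in the vomeronasal organ belongs to neurons with type 1 receptors, had 204.8 ± 67.1 TPM and Ric8b, a chaperone of G protein alpha subunits, 8.97 ± 3.56 TPM (SD, n = 6 each).

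The signalling genes of tuft and taste cells were present in the same libraries. All 7 genes of that list were above 0 in any library, and 6 in every library, where 67.1% and 47.2% of all genes were. Trpm5, the cation channel, had 1141 ± 211 TPM and 24.9 to 41.2 times the TPM of Vmn2r26, and 269.3 to 2604 times that of Trpc2. Gnat3, the gene of gustducin, had 146.2 ± 42.0 TPM (SD, n = 6). The MHC class Ib genes whose products accompany type 2 receptors in the vomeronasal organ, H2-M1, H2-M9, H2-M11 and the H2-M10 genes, were at 0 in all libraries. Above 0 in any library were 0 of these 9 and 67.1% of all genes.

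Marker lists were read to see which cells the libraries held. All 14 tuft cell markers were above 0 in every library, a state that 47.2% of all genes reached, with a summed level of 11458 to 22017.5 TPM. So were the 7 Paneth cell markers, with 4089 to 26976 TPM, and the 7 goblet and 8 enterocyte markers. Of 10 markers of vomeronasal and olfactory neurons, 5 were above 0 in any library, where 67.1% of all genes were. Cnga2, Cnga4, Ano2, Stoml3 and Gap43 were at 0 in all libraries, and 3 markers were above 0 in every library. These 3 were Gnal, a G protein alpha subunit gene, at 2.10 to 5.49 TPM, Adcy3, an adenylyl cyclase gene, at 0.15 to 2.04 TPM, and Trpc2 at 0.52 to 3.78 TPM. The list summed to 4.19 to 9.21 TPM. Omp, the defining marker of mature sensory neurons of both kinds, was at 1.14 TPM in 1 library and at 0 in the others. Leukocyte markers summed to 116.9 to 196.5 TPM, of which Ptprc had 74.2 to 170.9 TPM. All 9 enteroendocrine markers were above 0 in any library and 3 in every library. They summed to 379 to 536.5 TPM, of which Sct had 331 to 474 TPM. Chga and Chgb were highest in replicate 5, at 40.4 and 59.6 TPM. The part of other cells in the level of Vmn2r26 was not tested. The libraries resembled one another, with Spearman correlations across genes of 0.915 to 0.937 over 15 pairs, and 13044 to 13308 genes above 0.

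Whether the level of Vmn2r26 followed the make-up of the libraries was examined over 3 relations. With the median of the tuft cell list, Pearson's r was 0.586 (exact permutation p = 0.240, adjusted p = 0.721; n = 6) and Spearman's rho 0.429 (exact permutation p = 0.419, adjusted p = 1). With replicates 1 and 2 left out, whose list levels were the most remote, r was -0.29, so no relation can be read. With the number of genes above 0, r was -0.026 (exact permutation p = 0.953, adjusted p = 0.953) and rho 0.143 (exact permutation p = 0.803, adjusted p = 1), and r was 0.499 without replicates 1 and 5. With the Paneth cell list, r was -0.048 (exact permutation p = 0.924, adjusted p = 0.953) and rho -0.029 (exact permutation p = 1, adjusted p = 1), and r was 0.723 without replicates 4 and 5. After centring within replicates 1 to 3 and 4 to 6, the r values were 0.667, -0.039 and 0.044, with unadjusted exact permutation p of 0.361, 1 and 0.944. None of the 3 relations passed 0.05, and with 6 libraries this does not show that they are absent.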

How the data were processed

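RNA of tuft cells sorted from the ileum was amplified by a modified SMART-Seq2 protocol and sequenced in 6 libraries. The labels also list a polyA and a droplet preparation for every sample. The authors aligned paired-end reads with Bowtie to the UCSC mm10 transcriptome, with 1 mismatch in the seed and no more than 15 alignments allowed for a read. TPM values were computed by the authors with RSEM v1.2.3 and deposited. The strand setting and the release of the UCSC gene models were not stated, and those models were not used here. TopHat and DESeq2 are also named in the submitters' processing notes, and no such output was used. Each library sums to 1000000 TPM within rounding, so depth is unknown and no count test was run.

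Members were matched by symbol to GENCODE M21 (GRCm38) and to the RefSeq table of GRCm38, with 125 of 127 found in each. The coding sequence of the longest coding transcript was used, or the whole transcript where none is coding. Identity came from global alignment (edlib 1.3.9.post1) and shared sequence from exact words of 25 bases, the seed length of the alignment. Values were compared as log2(TPM + 1), by exact sign-flip tests over 64 assignments and exact correlations over 720 pairings, each with Benjamini-Hochberg adjustment, in Python 3.11.15. The rescaling, the separation of library sets and the word counts were tested on simulated data.

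Genes were named if they were Vmn2r genes above 0 in any library, class C receptors above 0 in at least 3 libraries, members of the 2 signalling lists, or other chemoreceptor genes averaging 1 TPM or more. A gene that met this rule is not reported here. The genes flanking the cluster, Gm45844, Casr, Gprc6a, Gabbr2, Vmn2r21, Vmn2r116, Vmn2r1 to Vmn2r7, Vmn2r113 and Vmn2r-ps130 were named after their values were seen. The family, the lists and Vmn2r26 were chosen with earlier results of these data known. The alternatives were other pseudocounts, thresholds, rescalings, the exact Mann-Whitney test and leaving out each library.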

Additional observations from a re-analysis of the deposited data

Results flagged for a closer look

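Of 41 genes screened, 13 had 1 library whose gap to the nearest other was a larger part of the whole range than Dixon's 95% value for 6 libraries allows. Chance gives about 1 in 20, or 2.05 of 41, only for values with a normal distribution. TPM values with libraries at 0 do not have one, so 13 cannot be judged against 2.05. Of the 13, 10 were above 0 in a single library, where the ratio is 1 by construction. These were Vmn2r18 at 1.13 TPM in replicate 1, Vmn2r24 at 0.09 TPM in replicate 2, Vmn2r57 at 0.57 TPM and Vmn2r98 at 0.08 TPM in replicate 5, Grm6 at 0.09 TPM, Omp at 1.14 TPM and Olfr165 at 7.10 TPM in replicate 4, Gprc5b at 0.89 TPM and Gnao1 at 1.82 TPM in replicate 3 and Kcnn3 at 0.06 TPM in replicate 6.

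The other 3 were above 0 in more than 1 library. Vmn2r29 was at 3.06 TPM in replicate 2 and at most 0.29 TPM elsewhere. Vmn2r-ps54 was at 0.53 TPM in replicate 4 and at most 0.18 TPM elsewhere, and its mean went from 0.143 to 0.066 TPM without that library. Tas1r2, a sweet taste receptor subunit, was at 1.32 TPM in replicate 5 and at most 0.19 TPM elsewhere. Neither Vmn2r26 nor Vmn2r-ps129 had such a library.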

How the results depend on the processing

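Under median-of-ratios rescaling the level of Vmn2r26 stayed within 1 SD of 36.5 TPM. With each library left out its mean ran from 33.1 to 39.7 TPM. Leaving out 1 of 6 libraries cannot move a mean by 1 SD, so that rule was not applied there. When TPM was rescaled without Rn45s and Gm20594, which raises every value, Vmn2r26 rose to 53.3 TPM and Vmn2r-ps129 to 152 TPM. This rescaling moved 17 of 39 other named genes beyond 1 SD, and median-of-ratios rescaling 0. The count of members above 0 fell from 10 to 4 with a threshold of 1 TPM. Vmn2r26 minus the most abundant other member was -1.40 and turned to 4.43 when, after the data had been seen, pseudogene symbols were left out. In the exact sign-flip test, the differences from Tas1r3 and Sucnr1 kept their sign and p = 0.031 under each pseudocount, filter and rescaling. The sign in 6 of 6 libraries fixes this p. The exact Mann-Whitney test gave p = 0.00216 for each, but it ignores that both genes were read in the same libraries. Vmn2r26 had 20.4 to 53.8 TPM, Tas1r3 at most 10.63 TPM and Sucnr1 at least 261.12 TPM. Without overlap the exact Mann-Whitney test gives its smallest possible p, so it adds nothing to the direction. With 5 libraries the smallest p of the exact sign-flip test is 0.0625, so leaving out a library gave values with no test. The correlation with the Paneth cell list turned from -0.048 to 0.131 (median-of-ratios), 0.106 (without Rn45s and Gm20594) and 0.0444 (centred within sets), all near 0; the cause was not tested. The libraries form 1 group, so there are no groups to pair, and the sign-flip tests paired genes within each library. As depth is unknown, no limit can be put on the members at 0.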

Other observations

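Isolated members of other chemoreceptor families were also above 0 in every library while the rest of their family was near 0. Vmn1r58, a type 1 vomeronasal receptor gene, had 56.0, 45.3, 19.7, 40.8, 42.2 and 42.3 TPM in replicates 1 to 6, on average 41.1 ± 11.8 TPM (SD, n = 6). It was close to Vmn2r26 in level, and Vmn2r26 minus Vmn1r58 was -0.17 ± 0.27 on the log2(TPM + 1) scale, with Vmn2r26 higher in 2 libraries and lower in 4. Vmn1r65 followed with 3.84 ± 1.15 TPM. Among olfactory receptor symbols, the pseudogene Olfr856-ps1 had 26.5 ± 8.35 TPM and Olfr613 had 12.2 ± 2.80 TPM (SD, n = 6 each), and Olfr165 was above 0 in 1 library only. All 4 genes above 0 in every library, and Vmn2r26 with them, were lowest in replicate 3, which Vmn2r-ps129 was as well. This is not particular to chemoreceptor genes, as Trpm5 and Gnat3 were also lowest in replicate 3, while Gnai2 and Ric8b were not. How many of all genes were lowest in that library was not counted. Whether the transcripts under these names hold receptor sequence, as was examined for Vmn2r-ps129, was not tested.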
